A study of Mus musculus with 8 samples.

Results

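The collagen genes are the 43 genes whose symbol has the form Col, a type number, the letter a and a chain number, of 22059 genes listed for each sample of mouse liver. They were chosen by symbol alone, and all 43 were among the 17081 genes with enough reads for the test. Whole livers came from wild-type FVB/NJ mice, an inbred strain, and no group carried a transgene or received a treatment. There were 2 samples at each of 4 stages, namely embryonic day 18 (E18), postnatal days 14 and 28 (P14 and P28) and adult at 3 months, described by the study as biological duplicates. Litter and any pooling of animals are not given in the sources used here. The methods name males for adult tissue and both sexes for the study as a whole, and the labels give no sex for these samples. RNA was poly(A)-selected and sequenced as read pairs of 100 bp, and 68154675 to 106055723 reads per sample were counted on genes.

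Collagens are secreted trimeric proteins in which 3 chains wind into a triple helix, and each chain has its own gene. Fibrillar types (I, II, III, V and XI) form the cable-like fibrils of connective tissue, type IV forms the sheet of basement membranes, type VI forms beaded filaments, and the fibril-associated types with interrupted helices (FACIT) decorate fibrils. In the liver, stellate cells and portal fibroblasts are the known main source of fibrillar collagen and of scar in fibrosis. The space between hepatocytes and the sinusoidal endothelium normally holds little of it, and hepatocytes themselves are known to make type XVIII.

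Levels are given as scaled RPKM, the deposited RPKM (reads per kilobase of transcript, relative to the mapped reads of the sample) multiplied by 1 factor per sample (0.627 to 1.19), so that ratios between samples follow read counts scaled by TMM, a method that takes most genes as not changing. RPKM is a level per transcript length, so different genes can be compared. A gene was called changed when the quasi-likelihood test of edgeR gave a Benjamini-Hochberg false discovery rate below 0.1 over all 17081 genes and the change was over 3-fold. Log2 fold changes are later over earlier stage, and rises and falls are on that log2 scale, each with its standard error (SE), and n = 2 samples per stage throughout.

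The composition of the samples differed most between E18 and the later stages. Erythroid markers summed to 5740 and 7480 scaled RPKM at E18 and to 47.6 to 67.2 later, and all 7 were called lower in adult. The summed level of 6 hepatocyte markers was 20900 and 21400 at E18 and 40000 to 109000 later, and none of them was at 0 in any stage. TMM factors were 1.539 and 1.598 at E18 and 0.847 to 0.888 after birth. Scaling by library size alone moved the median log2 fold change of all genes by -0.85 from E18 to adult and by -0.87 from E18 to P14, and by at most 0.03 in size in the later intervals. Changes from E18 are therefore given relative to the TMM scale, and the part of the shift in composition in any single collagen was not tested.

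More collagen genes were lower than higher in adult liver against E18. From E18 to adult, 23 of 43 (53.5%) fell, against 23.8% of all genes tested, and 6 (14.0%) rose, against 16.8%. The median log2 fold change was -1.60 over the 43 genes and -0.11 over all genes. With library size alone the counts were 28 lower and 3 higher, against 36.1% and 9.68% of all genes. With limma on log2(RPKM + 0.1), a pseudocount of 0.1, they were 22 lower and 1 higher, against 28.2% and 8.41%. Of the 6 risers, Col18a1, Col20a1 and Col27a1 lost the call under library size alone and kept a positive sign. With limma, Col5a3 alone kept the call. Several genes that fell had reads almost only at E18 and passed the filter on low counts through that stage. With at least 10 reads required in every sample, 34 members were tested and 15 were called lower, against 17.2% of 13950 genes.

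From E18 to P14, 7 members rose (16.3%, against 13.8% of all genes) and 8 fell (18.6%, against 15.4%), with medians of 0.02 and -0.03. With library size alone these counts were 3 and 11, against 7.41% and 29.8% of all genes, and 11 of the 43 members changed sign, none of them a called gene. From P14 to P28, 2 rose (4.65%, against 3.61%) and 12 fell (27.9%, against 5.98%), with medians of -1.22 and -0.05. From P28 to adult, 7 fell (16.3%, against 2.24%) and the medians were -0.45 and 0.00. In that interval 0 members rose by edgeR, DESeq2 or limma, against 0.767% of all genes, and 0 were higher at an unadjusted p under 0.05 by any of the 3 tools.

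**Figure D1:**
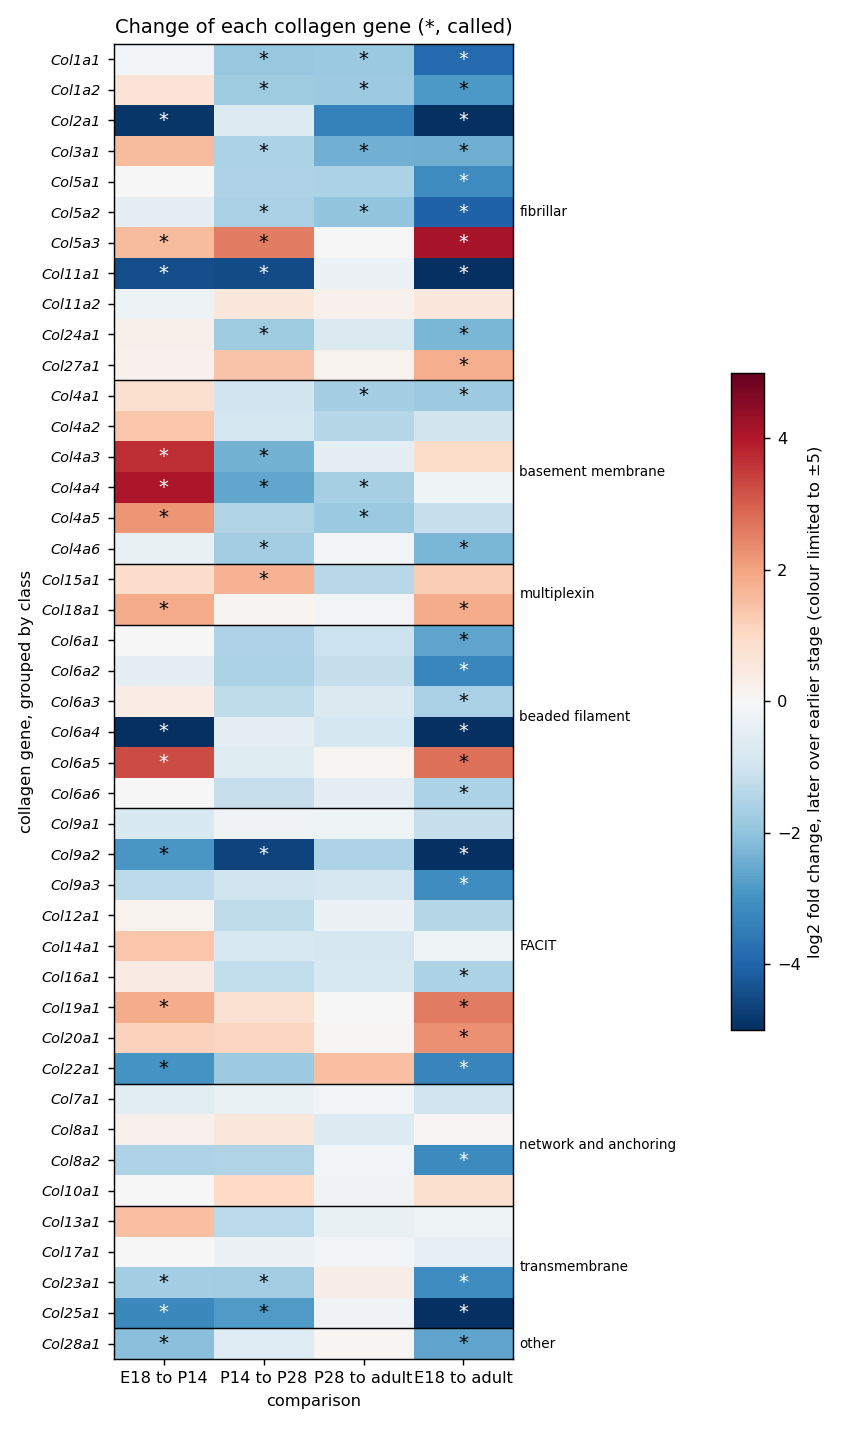
Log2 fold change (later over earlier stage, edgeR, TMM scaling) of each of the 43 collagen genes, in rows grouped by class, over the 3 intervals and from E18 to adult. Red is higher and blue lower at the later stage, with colours limited to ±5, and a star marks a called change. From E18 to adult these were 23 lower and 6 higher, against 23.8% and 16.8% of all genes. Under library size alone 3 were higher, against 9.68%.

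Over the more abundant collagens, the duplicates were furthest apart at P14 by the median ratio. Of the 26 members with a mean of at least 1 RPKM at some stage, 24 were higher in P14 replicate 2 than in P14 replicate 1, with a median ratio of 1.29. At P28 and in adult, 11 and 18 of the 26 were higher in replicate 2, and at E18 it was 2, with a median ratio of 0.822. The 8 fibroblast and myofibroblast markers summed to 95.8 scaled RPKM in P14 replicate 1 and 159 in P14 replicate 2, and the 7 skeletal muscle genes to 0.786 and 6.72. The part of these markers in the collagen levels was not tested. Without P14 replicate 2, the log2 fold change from P14 to P28 was -1.37 for Col1a1 and -1.33 for Col1a2. Without P14 replicate 1 these values were -2.27 and -2.09. Which members are called in this interval rests on which P14 sample is used. The calls lost without P14 replicate 2 were Col1a1, Col1a2, Col3a1, Col5a2, Col4a6 and Col23a1.

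Of the 11 fibrillar chains, 8 fell and 2 rose from E18 to adult, with a median log2 fold change of -2.86. Col1a1, which encodes the α1 chain of type I collagen, had 24.6 and 21.7 scaled RPKM at E18, 14.5 and 27.2 at P14, 5.40 and 5.91 by P28 and 1.30 and 1.80 in adult. The E18 and P14 samples overlapped, and every P28 and adult sample lay below them. The log2 fold change was -3.90 (SE 0.29, adjusted p = 1.7e-06, edgeR) from E18 to adult, and Col1a1 fell both from P14 to P28 (-1.88, SE 0.26) and from P28 to adult (-1.86, SE 0.27). Its partner Col1a2, the α2 chain, had 23.9 and 22.0 at E18, 27.5 and 47.0 at P14, 10.7 and 11.4 by P28 and 3.0 and 3.31 in adult. On the TMM scale it was highest in the P14 samples, and it fell in both later intervals, with log2 fold changes of -1.76 and -1.81 (both SE 0.21). In the deposited RPKM, Col1a2 had 38.1 and 34.2 at E18 and 24.1 and 40.7 at P14, which overlap. Its log2 fold change to P14 was 0.70 (SE 0.21) with TMM and -0.17 (SE 0.21) with library size alone.

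Col3a1, the single chain of type III collagen and of the reticulin fibres of the liver, was the most abundant fibrillar gene at every stage but adult. It had 42 and 35.3 scaled RPKM at E18, 93.0 and 138 at P14, 37.6 and 38.9 by P28 and 6.40 and 7.91 in adult. Both P14 samples stood above all others, both adult samples stood below all others, and the E18 and P28 samples overlapped. The rise to P14 was 1.58 (SE 0.19, adjusted p = 6.4e-05, edgeR), just under the 3-fold threshold. The log2 fold change was -1.59 (SE 0.19) from P14 to P28 and -2.42 (SE 0.20) from P28 to adult, both called. The first of these sits close to the 3-fold threshold and was lost under DESeq2, median-ratio scaling and several other settings.

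The type V chains, which join type I fibrils and are known to limit their width, did not move together. Col5a1 had 10.5 and 9.62 scaled RPKM at E18, 9.33 and 10.6 at P14, 3.43 and 3.37 by P28 and 1.04 and 1.23 in adult. E18 and P14 overlapped, and the fall from E18 to adult was -3.14 (SE 0.12, adjusted p = 2.1e-08, edgeR). Col5a2 went from 6.50 and 5.28 at E18 through 3.45 and 5.17 at P14 and 1.39 and 1.38 at P28 to 0.348 and 0.364 in adult. Its log2 fold change of -4.05 (SE 0.21) was about the size of that of Col1a1.

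Col5a3, the third type V chain, went the other way. It had 0.0749 and 0.0787 scaled RPKM at E18, 0.175 and 0.288 at P14, 1.58 and 1.15 by P28 and 1.11 and 1.60 in adult. The stages up to P28 did not overlap, whereas P28 and adult did. The rise was 4.14 (SE 0.31, adjusted p = 1.6e-06, edgeR) over the whole course, and it was called both from E18 to P14 (1.59, SE 0.31) and from P14 to P28 (2.56, SE 0.28). The first of these calls was lost with DESeq2, library size alone and several other settings. In adult the Col5a3 level of 1.35 ± 0.352 (SD) lay beside 1.13 ± 0.135 for Col5a1 and 0.356 ± 0.0115 for Col5a2, whereas at E18 Col5a1 was at 10 ± 0.590 and Col5a3 at 0.0768 ± 0.00269.

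Col27a1, a fibrillar chain known mainly from cartilage, was the other riser of its class. Its samples had 4.10 and 2.78 scaled RPKM at E18, 3.78 and 4.26 at P14, 10.2 and 11.3 by P28 and 12.5 and 12 in adult. E18 and P14 overlapped and lay below P28 and adult. The log2 fold change from E18 to adult was 1.83 (SE 0.17, adjusted p = 6.9e-06, edgeR). This call was lost under library size alone, with limma and without E18 replicate 2. In adult, Col27a1 was the fibrillar gene with the highest level, above Col3a1 at 7.15 ± 1.07 (SD).

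The 100 bases before the start of transcription are shown for Col3a1, the most abundant of the chains that fell, and for Col5a3 and Col27a1, the fibrillar chains that rose, since the 3 genes make like proteins with opposite courses. They were read 5′ to 3′ on the coding strand from RefSeq on build GRCm38.p6, at chr1:45311438-45311537 (plus strand), chr9:20815068-20815167 (minus strand) and chr4:63215312-63215411 (plus strand), and none of them overlaps an annotated exon in GENCODE M21. Capitals mark GGGCGG or its reverse complement CCGCCC, the GC box.
Col3a1: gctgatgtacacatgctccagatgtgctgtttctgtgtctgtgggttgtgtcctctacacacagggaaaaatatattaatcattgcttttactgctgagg
Col5a3: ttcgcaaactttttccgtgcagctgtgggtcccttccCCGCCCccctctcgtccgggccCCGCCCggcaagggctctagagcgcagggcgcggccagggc
Col27a1: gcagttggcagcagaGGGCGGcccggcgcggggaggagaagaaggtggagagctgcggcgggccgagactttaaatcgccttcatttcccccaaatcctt
The Col5a3 window held 2 GC boxes, the Col27a1 window 1 and the Col3a1 window 0. Over the 250 bases before the start, 35 of the 43 collagen genes had an entry, with 38 windows. GGGCGG on either strand occurred in 22 of the 38 (57.9%), against 32.7% of 32851 windows of all genes. It occurred before genes that fell from E18 to adult, such as Col1a2, Col5a1 and Col11a1, and before the risers Col5a3 and Col27a1. CCAAT on either strand occurred in 13 (34.2%, against 33.8%) and TATAAA on either strand in 5 (13.2%, against 12.4%), Col3a1 among the 5. The matches describe these letters only, and binding at them was not measured.

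Some fibrillar chains were found almost only at E18. Col11a1, a chain of the cartilage collagen XI, had 1473 and 1188 reads at E18, 34 and 50 at P14, 1 and 2 by P28 and 0 and 2 in adult. In scaled RPKM this was 1.36 and 1.24 at E18 and at most 0.0717 later, so the E18 samples stood far above all others. The fall was already -4.45 (SE 0.27, adjusted p = 6e-07, edgeR) by P14. Col2a1, the cartilage collagen II, had 94 and 85 reads at E18, 2 and 2 at P14, 1 and 1 by P28 and 0 and 0 in adult. Against a floor of 3 reads per adult library it was at least 14.2-fold lower in adult than at E18, and floors of this kind cover counting error only. Col24a1 was also found at P14. It had 221 and 103 reads at E18, 139 and 121 at P14, 40 and 23 by P28 and 12 and 19 in adult, and fell by 2.29 (SE 0.40). Col11a2 had 0.371 to 0.633 scaled RPKM as stage means and was called in 0 of the 4 comparisons. Its log2 fold change from E18 to adult was 0.53 with TMM and -0.33 with library size alone.

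**Figure D2:**
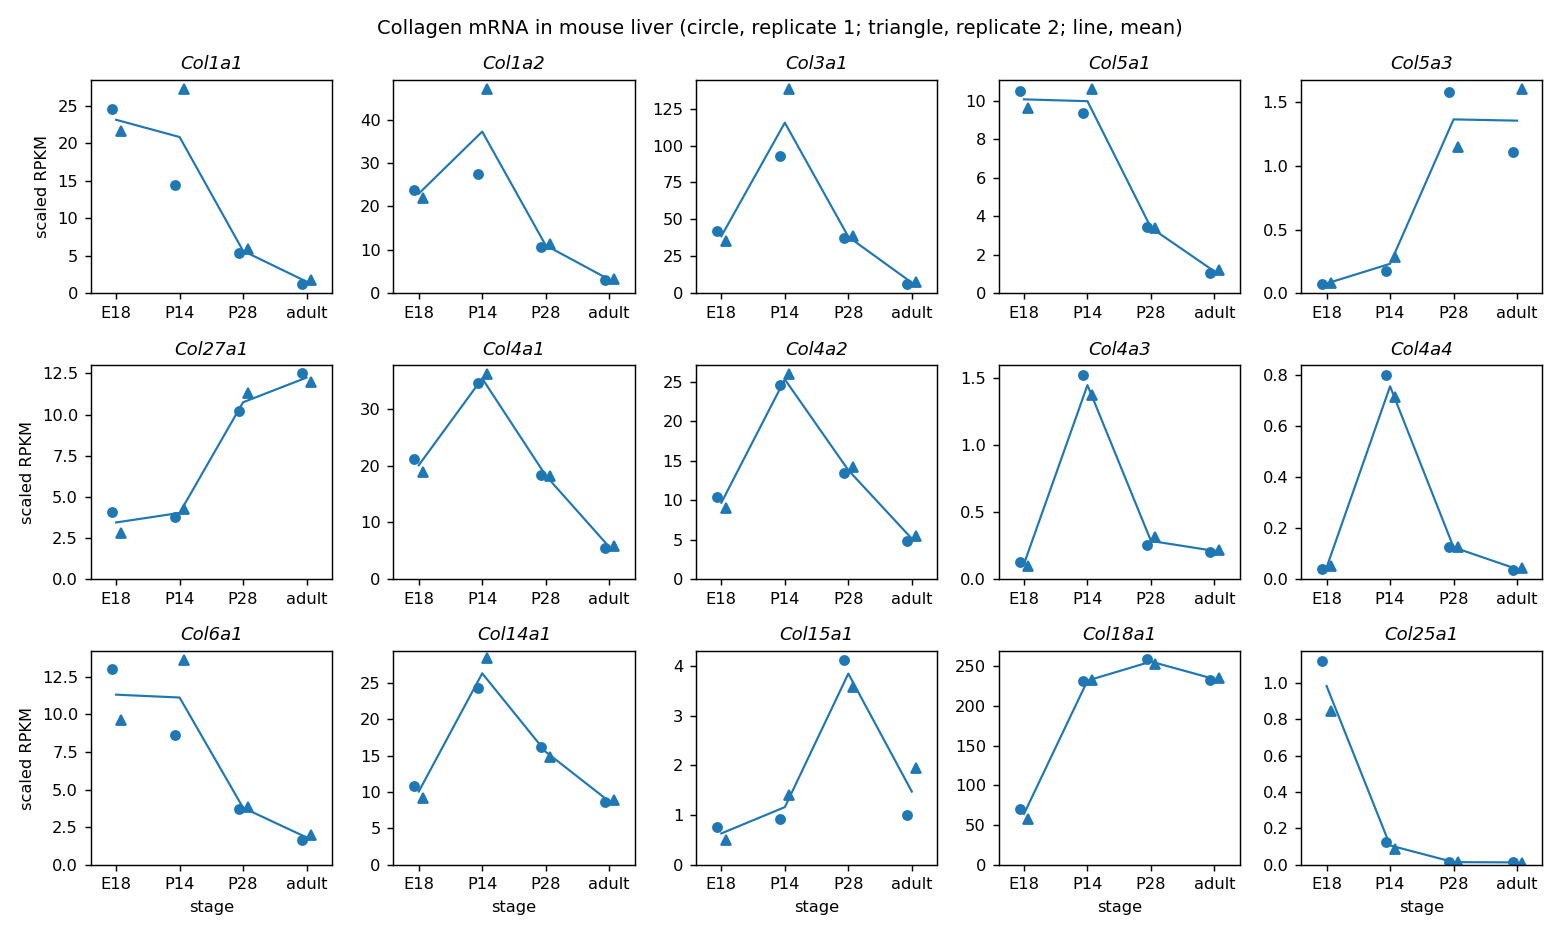
Scaled RPKM (linear axes, each starting at 0) of 15 collagen genes at the 4 stages, with replicate 1 as circles, replicate 2 as triangles and the mean of the 2 samples as a line. Col1a1 and Col5a1 step down after P14, Col4a3 and Col4a4 stand out at P14 only, Col5a3, Col27a1 and Col18a1 are higher in adult than at E18, and Col1a1, Col1a2 and Col3a1 differ between the P14 duplicates.

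On the TMM scale, the 6 chains of type IV collagen peaked at P14 with 1 exception. From E18 to P14, 3 rose and 0 fell, with a median log2 fold change of 1.80, and with library size alone 2 rose. From P14 to P28 3 fell and 0 rose, and the same counts held from P28 to adult. Col4a1 and Col4a2 encode the chains of the common basement membrane network and lie head to head on chromosome 8. Col4a1 had 21.2 and 18.9 scaled RPKM at E18, 34.6 and 36.1 at P14, 18.3 and 18.2 by P28 and 5.47 and 5.85 in adult. Its duplicates lay close together at every stage, with both P14 samples highest on this scale and both adult samples lowest. In the deposited RPKM, Col4a1 had 33.9 and 29.4 at E18 and 30.3 and 31.2 at P14, which overlap, and its log2 fold change to P14 was 0.82 (SE 0.09) with TMM and -0.05 (SE 0.10) with library size alone. The fall from E18 to adult was -1.83 (SE 0.10, adjusted p = 1.7e-07, edgeR), and that from P28 to adult was -1.69 (SE 0.10). Col4a2 had 10.4 and 8.95 at E18, 24.6 and 26.0 at P14, 13.4 and 14.2 by P28 and 4.77 and 5.46 in adult. It had the same order of stages except that P28 lay above E18, and its log2 fold change from E18 to adult of -0.92 (SE 0.11, adjusted p = 4e-05, edgeR) stayed under 3-fold.

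Col4a3, Col4a4 and Col4a5 encode the chains of the network best known from the kidney glomerulus. Col4a3 had 165 and 109 reads at E18, 1290 and 1133 at P14, 189 and 207 by P28 and 110 and 132 in adult. Both P14 samples stood far above all others, and Col4a3 rose by 3.68 (SE 0.19, adjusted p = 2.2e-07, edgeR) to P14 and fell by 2.35 (SE 0.18, adjusted p = 2e-05) to P28. Col4a4 had 45 and 54 reads at E18, 616 and 534 at P14, 83 and 75 by P28 and 17 and 24 in adult. It rose by 4.05 (SE 0.21) and then fell by 2.60 (SE 0.20) and fell by 1.66 (SE 0.25), so that E18 and adult did not differ by the test (-0.21, SE 0.26, adjusted p = 0.48, edgeR). These are low levels, with P14 means of 1.45 ± 0.104 (SD) scaled RPKM for Col4a3 and 0.757 ± 0.0614 for Col4a4, against 35.4 ± 1.07 for Col4a1.

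Col4a3 and Col4a4 are neighbours on chromosome 1 and point away from each other. The stretch between their RefSeq starts is 71 bases long, at chr1:82586850-82586920 on GRCm38.p6, and is shown because both genes rose and fell together. It is written 5′ to 3′ on the minus strand, the strand of Col4a4, so that Col4a3 begins at its left end on the opposite strand. None of the 3 motifs searched above occurs in it on either strand, so no letters are in capitals.
Col4a4 and Col4a3: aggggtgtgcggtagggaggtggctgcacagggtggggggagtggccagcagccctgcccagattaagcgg
An annotated antisense transcript shares 5.65% of the exon bases of Col4a3, and whether reads were counted by strand is not given in the sources used here.

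Col4a5, on the X chromosome, followed the same course with 0.653 and 0.501 scaled RPKM at E18, 2.42 and 2.93 at P14, 0.991 and 0.902 by P28 and 0.261 and 0.259 in adult. Its rise to P14 was 2.21 (SE 0.16, adjusted p = 2.4e-06, edgeR), a call lost with library size alone (1.34) and with limma (1.27), and the change from P28 to adult was -1.86 (SE 0.18). Its neighbour Col4a6 was the exception of the class, with its highest stage mean at E18, where it had 212 and 157 reads. The P14 samples of Col4a6 had 27 and 166 reads, and those of P28 and adult had 15 to 33. In scaled RPKM the E18 samples (0.214 and 0.179) lay between the P14 samples (0.0412 and 0.26). The fall from E18 to adult was -2.28 (SE 0.73, adjusted p = 0.017, edgeR). The call from P14 to P28 (-1.74, SE 0.72, adjusted p = 0.076, edgeR) was lost without P14 replicate 2. It was also lost with limma, the 2 stages alone, the replicate number as a block, and without either E18 or either P28 sample.

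Type XVIII collagen took a growing share of the collagen mRNA. Col18a1 encodes a basement membrane collagen of the multiplexin class whose end fragment is endostatin. It had 70.0 and 58.2 scaled RPKM at E18, 231 and 233 at P14, 259 and 253 by P28 and 233 and 235 in adult. The E18 samples lay below all others and the 3 later stages stayed within a narrow range. The rise to P14 was 1.85 (SE 0.12, adjusted p = 1.1e-06, edgeR), called under TMM and lost under library size alone and with limma. The level differed little afterwards (0.14 from P14 to P28 and -0.13 from P28 to adult, adjusted p = 0.35 and 0.51, edgeR).

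Col18a1 made up 25.5% ± 0.261 (SD) of the summed collagen RPKM at E18, 42.3% ± 5.42 at P14, 64.7% ± 0.618 by P28 and 80.2% ± 0.893 in adult. These are shares within a sample and do not depend on the scaling between samples. Over the same course the 11 fibrillar chains went from 42.4% ± 0.793 through 34.5% ± 5.72 and 18.3% ± 0.677 to 9.45% ± 0.435. The type IV chains went from 12.3% ± 0.338 to 3.88% ± 0.196, and the type VI chains from 12% ± 0.870 to 1.61% ± 0.150. Without Col18a1, the other 42 genes summed to 187 ± 21.8 scaled RPKM at E18, 321 ± 72.2 at P14, 140 ± 1.48 by P28 and 57.9 ± 3.64 in adult. In the deposited RPKM the same 42 genes summed to 323 and 267 at E18 and 236 and 321 at P14, which overlap. Their rise to P14 therefore rests on the scaling. With Col18a1, the sums in scaled RPKM were 251 ± 30.1, 552 ± 73.3, 396 ± 2.72 and 292 ± 5.20, so the total of all 43 was lowest at E18 on this scale. As a share of all gene reads, collagens took 0.268% and 0.218% at E18 and 0.272% and 0.321% at P14. The share was 0.213% in each P28 sample and 0.156% and 0.166% in adult, where it was lowest. Such a share amounts to scaling by library size alone, which moved the median of all genes by -0.85 from E18 to adult. The order of E18 and adult in the collagen total therefore turns with the scaling.

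**Figure D3:**
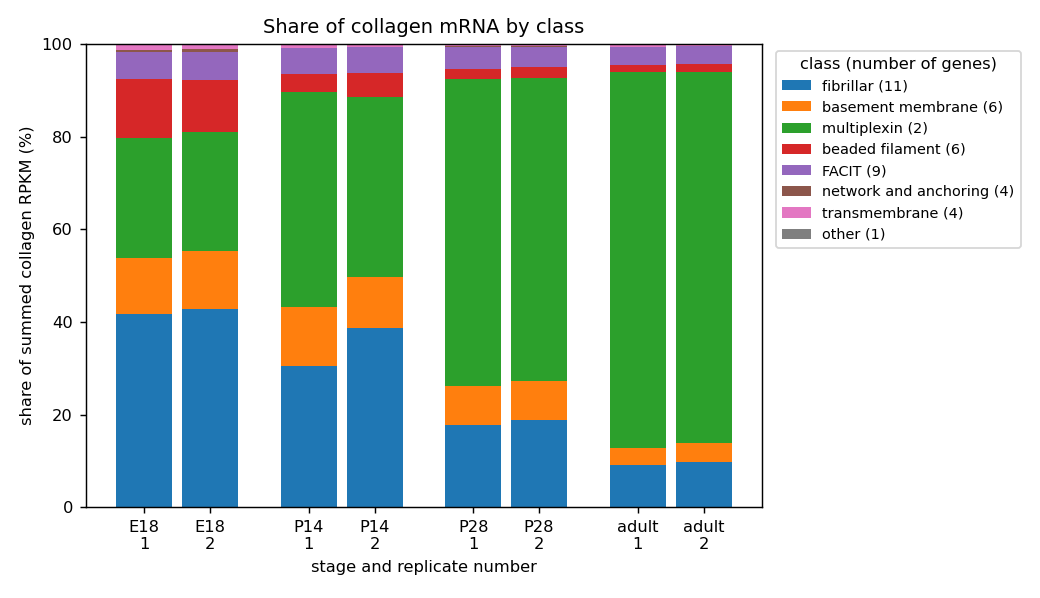
Share of the summed RPKM of the 43 collagen genes (%) taken by each class in each of the 8 samples, as stacked bars. The multiplexin class, nearly all Col18a1, grows from 25.8% as a mean at E18 to 80.7% in adult, while the fibrillar class shrinks from 42.4% to 9.45%.

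Col15a1, the other multiplexin and a collagen of vessel walls and basement membrane zones, peaked at P28. It had 0.758 and 0.506 scaled RPKM at E18, 0.913 and 1.41 at P14, 4.12 and 3.58 by P28 and 1.00 and 1.95 in adult. Both P28 samples stood above all others, and the P14 and adult samples overlapped. The rise from P14 to P28 was 1.73 (SE 0.32, adjusted p = 0.0026, edgeR), lost without P14 replicate 1. The log2 fold change of -1.38 (SE 0.32, adjusted p = 0.023) from P28 to adult was under 3-fold.

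Of the 6 chains of type VI collagen, which forms beaded filaments around cells, 5 fell and 1 rose from E18 to adult. Col6a1 and Col6a2, neighbours on chromosome 10, encode partner chains. Col6a1 had 13 and 9.62 scaled RPKM at E18, 8.64 and 13.6 at P14, 3.71 and 3.87 by P28 and 1.68 and 1.96 in adult. Col6a2 had 14.8 and 12, then 7.01 and 11.9, then 3.22 and 3.15, then 1.26 and 1.52. In both, the E18 and P14 samples were close or overlapped and the later samples lay below, with log2 fold changes of -2.64 (SE 0.23) and -3.27 (SE 0.24) from E18 to adult. Col6a3, the long partner chain, had 3.75 and 3.0 at E18, 3.59 and 5.21 at P14, 1.84 and 1.81 by P28 and 1.09 and 1.12 in adult, and fell by 1.61 (SE 0.18, adjusted p = 2.4e-05, edgeR), a call lost without E18 replicate 1.

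Col6a4, Col6a5 and Col6a6 encode chains that can take the place of the third chain and lie side by side on chromosome 9, and they took 3 different courses. Col6a4 had 2680 and 1210 reads at E18, 7 and 8 at P14, 1 and 8 by P28 and 3 and 1 in adult. It was present almost only at E18, where replicate 1 was well above replicate 2, and fell by 7.44 (SE 0.52, adjusted p = 1.6e-06, edgeR) to P14. Col6a5 had 71 and 49 reads at E18, 220 and 582 at P14, 200 and 242 by P28 and 138 and 253 in adult. Its E18 samples lay below all others, and it rose by 3.28 (SE 0.48, adjusted p = 0.00021, edgeR) to P14, a call lost with limma. Col6a6 had 354 and 240 reads at E18, 149 and 263 at P14, 78 and 76 by P28 and 37 and 56 in adult, with a log2 fold change of -1.60 (SE 0.32) from E18 to adult, close to the 3-fold threshold and lost without E18 replicate 1 or adult replicate 1.

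Among the 9 fibril-associated collagens, 4 fell and 2 rose from E18 to adult. Col14a1, which binds type I fibrils, was the most abundant, with 10.9 and 9.25 scaled RPKM at E18, 24.3 and 28.4 at P14, 16.2 and 14.9 by P28 and 8.59 and 8.85 in adult. It was highest at P14, and no interval exceeded 3-fold (1.39, SE 0.12, from E18 to P14). Its share of the collagen RPKM was 4.01% ± 0.0261 (SD) at E18 and 2.99% ± 0.0109 in adult. Col12a1, its close relative, had 0.779 and 0.549 at E18, 0.730 and 0.759 at P14, 0.319 and 0.302 by P28 and 0.202 and 0.298 in adult, with a log2 fold change of -1.41 (SE 0.22, adjusted p = 0.00026, edgeR) from E18 to adult, which is under 3-fold. Col16a1 had 1.99 and 1.53 at E18, 1.97 and 2.76 at P14, 0.947 and 1.08 by P28 and 0.497 and 0.670 in adult. Its log2 fold change of -1.59 (SE 0.22) sat at the 3-fold threshold, and the call was lost in 6 of the 8 fits that left out 1 sample.

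Type IX collagen, which coats the type II fibrils of cartilage, has 3 chains, and 2 of them fell. Col9a2 had 667 and 692 reads at E18, 41 and 83 at P14, 3 and 1 by P28 and 0 and 1 in adult. It fell by 2.92 (SE 0.33) to P14 and by a further -4.63 (SE 0.61, adjusted p = 0.00038, edgeR) to P28. Col9a3 had 221 and 149 reads at E18, 59 and 45 at P14, 27 and 17 by P28 and 9 and 11 in adult, a log2 fold change of -3.12 (SE 0.33), and shares 6.07% of its exon bases with Tcfl5 on the other strand. Col9a1 had 3 to 27 reads per sample and was called in 0 of the comparisons.

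Col19a1 and Col20a1, less studied fibril-associated collagens, rose. Col19a1 had 19 and 24 reads at E18, 48 and 61 at P14, 68 and 87 by P28 and 61 and 66 in adult. Its log2 fold change from E18 to adult was 2.61 (SE 0.32, adjusted p = 5.8e-05, edgeR), a call lost with limma. Col20a1 had 0.318 and 0.198 scaled RPKM at E18, 0.518 and 0.635 at P14, 1.29 and 1.14 by P28 and 1.38 and 1.16 in adult. The call for its rise of 2.29 (SE 0.24) was lost under library size alone and with limma. In scaled RPKM, the E18 and P14 samples of both lay below those of P28 and adult, which overlapped. Col22a1, known from muscle-tendon junctions, had 74 and 34 reads at E18 and 0 to 5 later, and fell by 3.0 (SE 0.59) to P14.

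The remaining classes were low. Of the 4 transmembrane collagens, Col25a1, which motor axons need to innervate muscle, had 1256 and 835 reads at E18, 92 and 63 at P14, 10 and 8 by P28 and 7 and 6 in adult, with a log2 fold change of -6.23 (SE 0.31, adjusted p = 1.2e-07, edgeR). Col23a1 had 543 and 282 reads at E18, 65 and 108 at P14, 20 and 23 by P28 and 17 and 28 in adult, with a log2 fold change of -3.11 (SE 0.39). Both stood highest at E18 in each sample. Col13a1, found at cell contacts, had 1.38 and 1.23 scaled RPKM at E18, 3.57 and 3.76 at P14, 1.39 and 1.53 by P28 and 1.41 and 0.831 in adult, so that P14 was highest with a log2 fold change of 1.49 (SE 0.21), under 3-fold. Col17a1, a collagen of hemidesmosomes, had 25 to 101 reads per sample and was called in 0 of the comparisons.

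Of the 4 network-forming and anchoring chains, Col8a2 alone was called. Col8a2, a chain of the short-chain type VIII network, had 0.755 and 0.681 scaled RPKM at E18, 0.211 and 0.284 at P14, 0.0993 and 0.0751 by P28 and 0.0627 and 0.0938 in adult, and fell by 3.18 (SE 0.28, adjusted p = 4.7e-06, edgeR). Col7a1 (anchoring fibrils), Col8a1 and Col10a1 (growth plate cartilage) stayed between 0.0639 and 0.287 scaled RPKM as stage means and were called in 0 of the comparisons. The direction of Col8a1 and Col10a1 from E18 to adult changed with the scaling. Col28a1, a chain known from peripheral nerve, had 57 and 38 reads at E18 and 3 to 9 later, and fell by 2.65 (SE 0.48).

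Genes of other tissues were also found at E18. Of 12 exocrine pancreas genes, 9 fell from E18 to adult, and their sum was 182 and 412 scaled RPKM at E18 and 3.95 to 10.3 later. Cpa1 and Pnliprp1, which encode digestive enzymes, had 33.8 and 68.4, and 55.1 and 103, at E18 and were at 0 reads in both adult samples, at least 1790-fold and 2840-fold lower. Of 6 cartilage genes in the files, 5 were tested, of which 3 fell and 1 rose. Acan, the aggrecan of cartilage, had 0.0292 and 0.0403 scaled RPKM at E18 and was at 0 in adult, at least 5.68-fold lower. Matn1 had 0.0435 and 0.0455 at E18 and Lect1 rose by 9.79 (SE 0.40) to 11.7 and 7.56 in adult, where Col2a1 was at 0. Of 7 skeletal muscle genes 6 were tested and 5 fell, with sums of 9.08 and 11.7 at E18. Acta1 had 0.486 and 0.445 at E18 and 0.00708 and 1.89 at P14, and Myh8 was at least 2.71-fold lower in adult. The part of other tissues in the collagens of E18 was not tested.

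Markers of the cells that make collagen in liver had courses of their own. The 10 stellate cell markers summed to 51.8 and 46.7 scaled RPKM at E18, 192 and 202 at P14, 127 and 140 by P28 and 130 and 111 in adult. Of these, 2 rose from E18 to adult (Ecm1 by 4.23, SE 0.14, and Lrat, the vitamin A storage enzyme, by 2.07, SE 0.16), 1 fell (Gfap, -6.11, SE 0.34) and 7 were not called. The median log2 fold change of the 10 markers was -0.03 over this course. Ecm1 alone gave 3.82 and 3.23 of the stellate sum at E18 and 72.8 and 59.4 in adult. The 8 fibroblast and myofibroblast markers summed to 54.2 and 47.4, then 95.8 and 159, then 31.4 and 35.6, then 16.1 and 20.5. Of these, 5 fell, among them Acta2, the smooth muscle actin (-2.57, SE 0.59), and Eln, elastin (-2.56, SE 0.21), and Thy1 rose (1.80, SE 0.26). The 9 sinusoidal endothelial markers summed to 77.8 and 69.6, then 209 and 208, then 116 and 119, then 102 and 85.8, with 2 higher (Clec4g by 3.29, SE 0.11, and Fcgr2b by 3.08, SE 0.11), 1 lower (Lyve1, -5.02, SE 0.23) and 6 not called. No stellate, fibroblast or endothelial marker was at 0 in both samples of a stage. The order of E18 and adult in the endothelial sum turns with the scaling, since without scaling it was 124 and 108 RPKM at E18 and 86.4 and 74.8 in adult. The fibroblast sum without scaling was 86.5 and 73.8 RPKM at E18 and 83.8 and 137 at P14, which overlap.

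In whole tissue, fewer cells of a type and less RNA per cell cannot be told apart. As a description chosen after the values were seen, the ratio of Col1a1 to the fibroblast sum was 0.454 and 0.458 at E18, 0.152 and 0.171 at P14, 0.172 and 0.166 by P28 and 0.0805 and 0.0880 in adult. In this ratio the P14 duplicates were close, unlike in the level of Col1a1 and in its ratio to the stellate sum (0.0756 and 0.134 at P14). Eln alone gave 46.2 and 68.1 of the fibroblast sums of 95.8 and 159 scaled RPKM at P14. The ratio of Col3a1 to the fibroblast sum was 0.775 and 0.745 at E18, 0.971 and 0.869 at P14, 1.2 and 1.09 by P28 and 0.397 and 0.386 in adult. The ratio of Col4a1 to the endothelial sum went from 0.273 and 0.272 at E18 to 0.165 and 0.174, 0.158 and 0.153, and 0.0536 and 0.0682 in adult. These ratios to the fibroblast and endothelial sums were all lowest in the adult samples. Of 6 mesothelial markers, 1 fell (Wt1, -2.40, SE 0.25) and 5 were not called. Of 5 bile duct markers, 3 fell (among them Epcam, -3.63, SE 0.31, and Krt7, -2.24, SE 0.21) and Spp1 rose (2.37, SE 0.13).

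**Figure D4:**
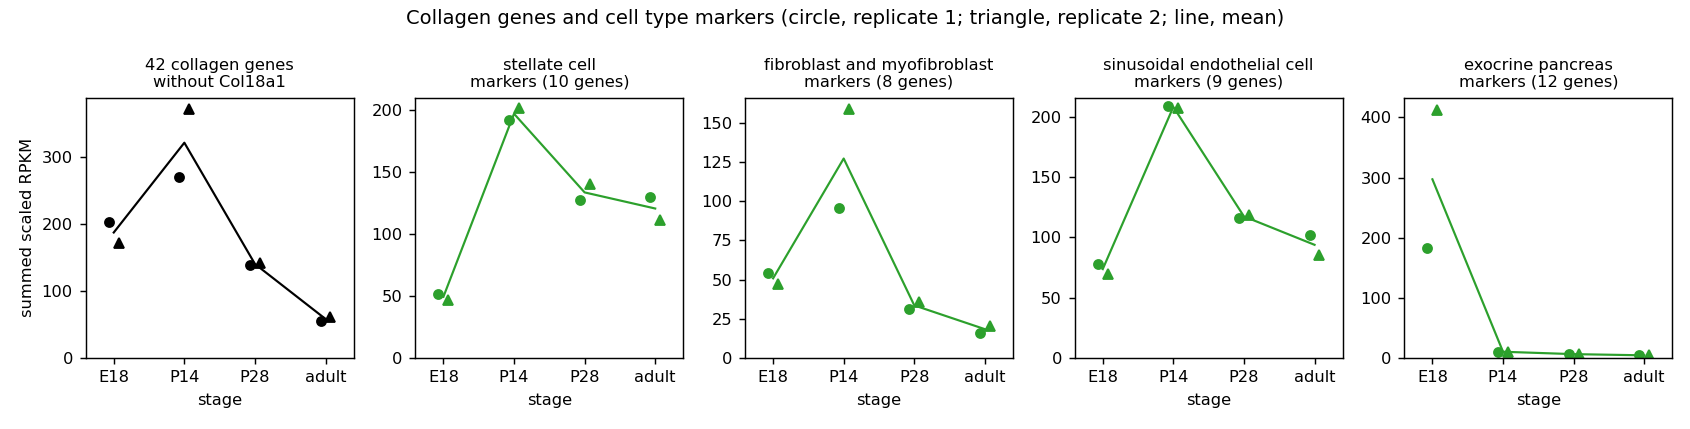
Summed scaled RPKM (linear axes starting at 0) of the 42 collagen genes other than Col18a1 and of 4 marker lists at the 4 stages, with replicate 1 as circles, replicate 2 as triangles and the mean as a line. The collagen and fibroblast sums are lower in adult (55.3 and 60.5, and 16.1 and 20.5) than at E18, and the pancreas genes stand out at E18 alone.

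Ratios between chains within 1 sample do not depend on the scaling, and 5 were tested with an exact permutation test over the 2520 assignments of the 8 samples to the stages, whose smallest possible p is 0.0095. Values were adjusted over the 5 ratios. Col3a1 over Col1a1 was 1.71 and 1.63 at E18, 6.40 and 5.07 at P14, 6.96 and 6.59 by P28 and 4.94 and 4.39 in adult (exact permutation p = 0.0095, adjusted 0.024). All 6 later samples lay above both E18 samples. Col4a1 over Col4a2 was lower at each later stage, from 2.03 and 2.11 through 1.41 and 1.39, and 1.37 and 1.28, to 1.15 and 1.07 (exact permutation p = 0.0095, adjusted 0.024), with no overlap between the stages.

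Col4a1 over Col1a1, basement membrane against fibril, was 0.863 and 0.871 at E18, 2.38 and 1.33 at P14, 3.4 and 3.08 by P28 and 4.22 and 3.25 in adult (exact permutation p = 0.019, adjusted 0.032). It was higher after birth in 6 of 6 samples, and the P28 and adult samples overlapped. Col1a1 over Col1a2 was 1.03 and 0.989 at E18 and 0.432 to 0.578 in the 6 later samples, and did not pass (exact permutation p = 0.095, adjusted 0.095). Col6a1 over Col6a2 was 0.883 and 0.804 at E18 and 1.15 to 1.33 later, and did not pass after adjustment either (exact permutation p = 0.048, adjusted 0.060). With 1 sample left out, Col3a1 over Col1a1 lost significance in 4 of 8 cases, those of P28 and adult, and Col4a1 over Col1a1 in 6 of 8, those of E18, P28 and adult. In each such case 1 stage was left with 1 sample.

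**Figure D5:**
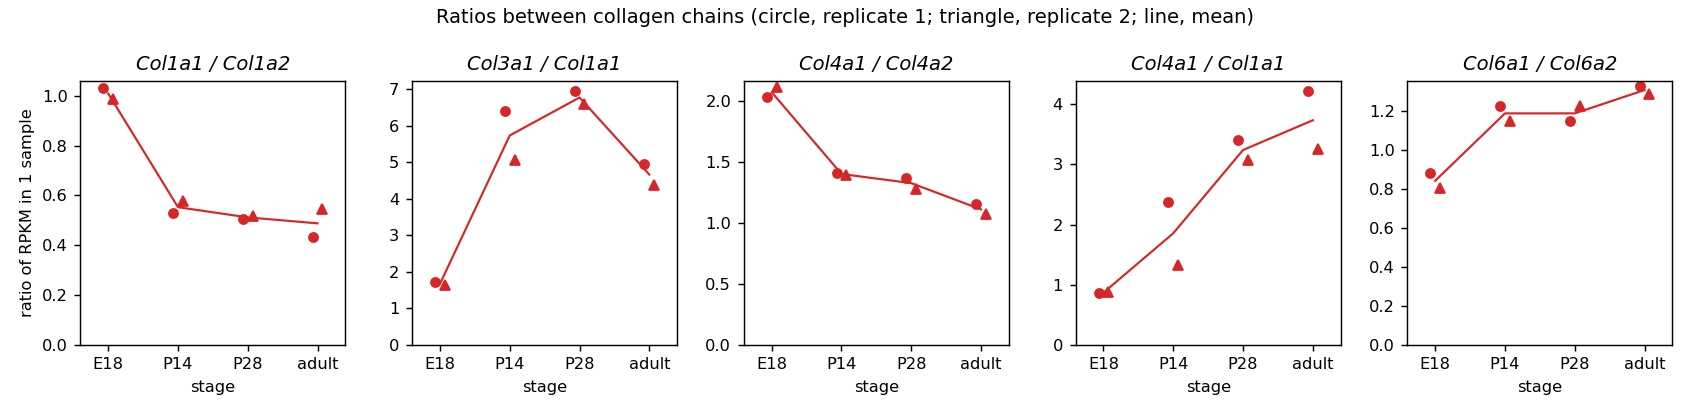
Ratio of the RPKM of 2 collagen chains in the same sample (linear axes starting at 0) at the 4 stages for the 5 pairs tested, with replicate 1 as circles, replicate 2 as triangles and the mean as a line. Col3a1 over Col1a1 rises from a mean of 1.67 at E18 to 5.73 at P14, and Col4a1 over Col4a2 goes from 2.07 to 1.11 in adult.

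Genes that make, process and bind collagen are read against the 23.8% of all genes that fell and the 16.8% that rose from E18 to adult. With library size alone, 7 genes of these and the marker lists that are given with values lost a call of higher and kept a positive sign, namely Glt25d2, Bmp1, Lamc3, Smad7, Lrat, Thy1 and Spp1. Of 18 genes for chain modification and folding, 6 fell, 1 rose and 11 were not called from E18 to adult, with a median of -0.56. P4ha3, a prolyl 4-hydroxylase subunit, had 1.5 and 1.61 scaled RPKM at E18 and 0.0135 and 0.0119 in adult (-6.88, SE 0.50), and the chaperone Fkbp10 had 7.43 and 6.15 at E18 and 0.381 and 0.500 in adult (-3.94, SE 0.22). The riser was Glt25d2, a galactosyltransferase for collagen hydroxylysine, with 0.296 and 0.457 at E18, 2.20 and 2.88 at P14 and 1.12 and 1.14 in adult (1.59, SE 0.23). Of 7 propeptide processing genes tested, 3 fell and 1 rose. Bmp1, the C-proteinase, rose by 1.63 (SE 0.10), whereas Adamts3, an N-proteinase, and Pcolce2, an enhancer of the C-proteinase, fell, with log2 fold changes of -2.67 (SE 0.22) and -2.88 (SE 0.20).

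Of the 5 crosslinking enzymes, 3 fell and 0 rose (median -1.77). Lox, which starts collagen crosslinks, had 2.15 and 1.82 scaled RPKM at E18, 1.13 and 1.51 at P14, 0.339 and 0.307 by P28 and 0.0444 and 0.140 in adult (-4.39, SE 0.36, adjusted p = 3.5e-06, edgeR). Loxl2 had 5.90 and 4.71, then 6.36 and 6.91, then 2.39 and 2.55, then 0.599 and 0.690 (-3.04, SE 0.14). Among 10 genes for collagen breakdown and its inhibitors, 5 fell and 0 rose, led by the neutrophil collagenase Mmp8 (-7.95, SE 0.36) and the gelatinase Mmp9 (-3.71, SE 0.36).

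Of 9 collagen receptors, 3 fell and 6 were not called (median -0.38), with Gp6, the platelet receptor, at -6.21 (SE 0.42) and Itga2, an integrin chain, at -4.68 (SE 0.77). The 10 fibril partners had 3 higher and 1 lower and a median of 1.12. Prelp, a small leucine-rich proteoglycan, rose by 2.53 (SE 0.09) and its relative Omd by 2.44 (SE 0.23), whereas Aspn fell by 3.17 (SE 0.39). From E18 to P14, 6 of these 10 rose, against 13.8% of all genes. Of 15 basement membrane partners, 7 fell and 2 rose. Nid1 and Nid2, the nidogens that link laminin to type IV collagen, fell, with log2 fold changes of -3.02 (SE 0.14) and -3.15 (SE 0.15), and the laminin chains Lama3 and Lamc3 rose by 3.08 (SE 0.21) and 2.35 (SE 0.36). Of 9 genes of TGF-beta signalling, a known inducer of fibrillar collagen, 3 fell and 1 rose. The ligand Tgfb1 had 17.7 and 19.7 scaled RPKM at E18 and 2.08 and 2.13 in adult (-3.15, SE 0.10), Tgfb2 fell by 1.90 (SE 0.26), and Smad7, an inhibitor of the pathway, rose by 1.86 (SE 0.16).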

How the data were processed

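Poly(A)-selected RNA of whole mouse liver was sequenced in 8 libraries. Stage and replicate number came from the labels, which give no batch. The authors aligned the reads (genome build mm9 per the submitters' processing notes, aligner not given in the sources used here) and deposited a raw read count and an RPKM per gene. Each file had 1 blank row, which was left out. Counts were fitted with edgeR (version 4.0.16; filterByExpr, TMM, glmQLFit and glmQLFTest, 1 coefficient per stage). Which collagen genes were included was fixed by symbol alone. The choice of collagens as the topic, their classes and the pathway and marker lists were made with earlier results of these data known. Every collagen gene may be named, with all samples for those of at least 1 RPKM at a stage or called. Of each other list, up to 2 called genes per direction with the largest change from E18 to adult are named.

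At 68154675 to 106055723 reads per library, genes with few reads are limited by counting. P-values of edgeR use 1 estimate of the spread per gene, shared by the 4 stages with 2 samples each. Duplicates that lie far apart at 1 stage thus also enter the tests between other stages. Alternatives were other filters, scalings and thresholds, the 2 stages alone, DESeq2 (version 1.42.0), limma (version 3.58.1) on log2(RPKM + 0.1), the replicate number as a block, and each sample left out. R (version 4.3.3), Python (version 3.11.15) and scipy (version 1.17.1) were used.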

Additional observations from a re-analysis of the deposited data

How the results depend on the processing

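Requiring at least 10 counts in every sample left 15 members lower from E18 to adult, against 17.2% of 13950 genes. From E18 to P14 it left 2 lower, against 9.73%. Library size alone gave 3 higher from E18 to adult (against 9.68% of all genes) and 3 from E18 to P14 (against 7.41%). With limma on log2(RPKM + 0.1), 1 and 2 were higher (against 8.41% and 6.06%). In that setting 5 were lower from P14 to P28 (against 2.75%). A 2-fold threshold gave 12 higher from E18 to P14, against 21.8% of all genes. From P14 to P28 it gave 5 higher (against 7.07%) and 22 lower (against 12.4%). From P28 to adult it gave 12 lower (against 4.77%). With 1 sample left out, the counts ranged from 5 to 7 higher and 20 to 25 lower (E18 to adult), 6 to 8 and 7 to 10 (E18 to P14), 1 to 2 and 6 to 17 (P14 to P28), and 6 to 9 lower (P28 to adult). The log2 ratio of adult over E18 then ranged from 1.91 to 2.28 for Col4a1 over Col1a1, 1.40 to 1.57 for Col3a1 over Col1a1, 0.57 to 0.71 for Col6a1 over Col6a2, and -1.22 to -0.89 for Col1a1 over Col1a2. On the linear scale Col6a1 over Col6a2 (0.64) passed at an adjusted exact permutation p of 0.048. From E18 to adult, the sign turned for Col4a4 (from -0.43 to 0.03 with 1 sample left out), Col13a1 (from -0.65 to 0.11), Col8a1 (-0.07 with the stricter filter, -0.78 with library size alone, -0.48 with limma), Col10a1 (-0.06 with library size alone and with limma) and Col11a2 (-0.33 and -0.29), none of them called; the cause was not tested.

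The replicate number as a block gave 6 higher and 23 lower from E18 to adult, against 16.8% and 23.8% of all genes. From E18 to P14 it gave 6 and 8 (against 13.8% and 15.5%). From P14 to P28 it gave 2 and 10 (against 3.55% and 5.91%), and from P28 to adult 0 and 8 (against 0.779% and 2.15%). The difference between replicates 1 and 2 correlated between stages with r from -0.414 (P28 and adult) to 0.161 over 8726 genes. With 2 samples per stage this cannot show whether the numbers pair the samples, and the labels give no batch. Low-read genes such as Col2a1 and Col22a1 are the ones limited by depth.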

Other observations

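One more collagen gene, Col26a1, is listed under its older symbol Emid2 and so lies outside the 43 genes. It had 149 and 141 reads at E18, 153 and 276 at P14, 90 and 120 by P28 and 4 and 2 in adult. Its E18, P14 and P28 samples lay far above the adult samples. The log2 fold change from P28 to adult was -4.82 (SE 0.54, adjusted p = 0.00084, edgeR), below that of each of the 43 genes in this interval. As in most of them, P14 replicate 2 was higher than P14 replicate 1.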
